A study of Mus musculus with 12 samples.

Results

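The regions described are stretches of the mouse genome that carried dimethylated histone H3 lysine 79 (H3K79me2) with and without Cre, and in which monomethylation of the same residue (H3K79me1) was listed nowhere. They were chosen from the positions of broad ChIP-seq peaks (mm9) on the 19 autosomes. A stretch had to lie in peaks of both H3K79me2 control lists, to be touched by at least 1 base of each of the 2 H3K79me2 Cre lists, and to hold no base of any of the 4 H3K79me1 lists. This left 1681 stretches of 63168 common to both controls, or of 33616 that both Cre lists also touched. They are called H3K79me1-free below, and the other 31935 of the 33616 are called H3K79me1-marked. Since positions in all 8 lists chose the regions, the absence of H3K79me1 and the presence of H3K79me2 are descriptions here.

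The cells were mouse embryonic fibroblasts with floxed AF10 (Mllt10) alleles, on day 4 of reprogramming toward induced pluripotent stem cells. All groups carried the OSKM reprogramming factors and rtTA, the activator that switches them on with doxycycline, which was given at 2 µg/mL. Controls (AF10 fl/fl) received an empty Ad5-CMV adenovirus and the other group (labelled AF10 -/-) the same virus type with Cre recombinase, with doxycycline 2 days later. Each mark had 2 control and 2 Cre libraries. The lists hold no measure of how completely AF10 was deleted, and feeder fibroblasts were in the dishes, so their chromatin may have entered the libraries. No label says that replicates came from separate cultures, so p-values measure only the spread between these libraries, which may be technical.

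DOT1L, the enzyme that methylates H3K79, adds methyl groups one after another, so that mono-, di- and trimethylated forms occur on the same genes. AF10 is a cofactor of DOT1L that favours the higher methylation states. Both forms are known from the bodies of transcribed genes, with dimethylation usually strongest near the start of a gene and monomethylation reaching further into it. Without an annotation of mm9, no stretch was tied to a gene, and regions are given by position.

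H3K79me1-free stretches were few, short and mostly close to H3K79me1. They made up 5% of the stretches kept after Cre and 291.9 kb, which was 3.12% of the kept length. Their median width was 119 bp (25th to 75th percentile 64 to 227 bp), against 194 bp (96 to 356 bp) in the H3K79me1-marked stretches. Only 10 of them reached 1000 bp, the widest being 1327 bp, against 1031 marked stretches and a maximum of 4571 bp. The share without H3K79me1 went down with width, from 7.91% of the 9087 stretches under 100 bp to 5.52% at 100 to 200 bp, 3.74% at 200 to 500 bp and 1.53% of the 4775 at 500 bp and over. A longer stretch has more bases in which an H3K79me1 peak can lie, so the rule itself bears on this order. In 81 of the 1681 (4.82%) the width was under 51 bp, against 2.73% of marked stretches. The shortest H3K79me2 peak of any list was 51 bp, so these were slivers where 2 control peaks overlapped in part.

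**Figure D1:**
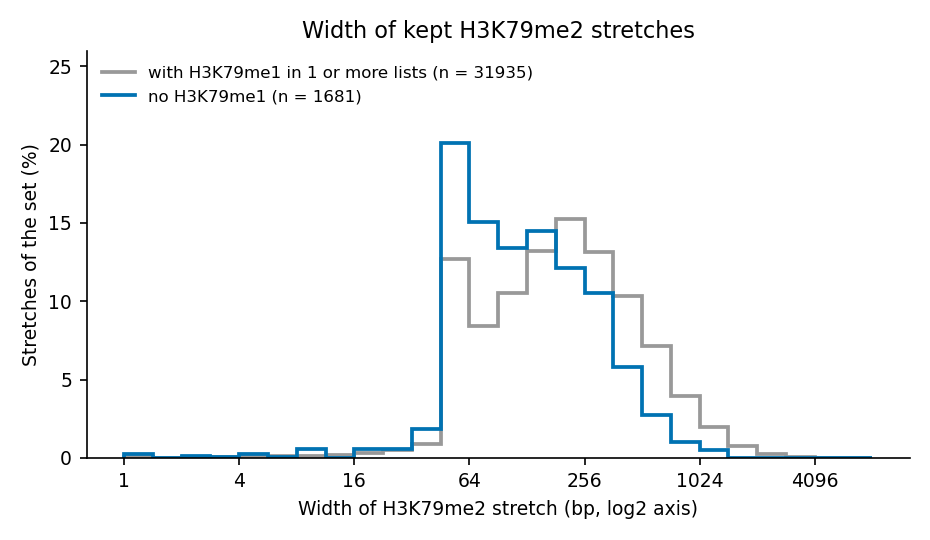
Share of stretches (y axis, percent of each set) by width (x axis, bp, log2 scale) for the 1681 H3K79me1-free stretches (blue) and the 31935 marked stretches (grey). The blue outline is highest between 45 and 64 bp and lies below the grey one above 181 bp.

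The number of such stretches depended on single lists. Most kept stretches held H3K79me1 in several lists: 41.5% in 3, 29.9% in 2, 14.4% in 1 and 9.18% in all 4. H3K79me1 Cre replicate 1 touched 79.7% of the kept stretches, control replicate 1 74.6%, control replicate 2 66.0% and Cre replicate 2 only 15.0%. That last list held 12155 peaks, against 117816 to 160119 in the others. Without H3K79me1 Cre replicate 1 the number of H3K79me1-free stretches was 4346, without control replicate 1 it was 2653, and without control replicate 2 it was 2793. Leaving out H3K79me2 Cre replicate 1 gave 8535, and leaving out H3K79me2 control replicate 1 gave 1027. The marked label also depended on the p-value asked of each listed H3K79me1 peak. When only H3K79me1 peaks with a −log10 p of at least 2 were counted, 25324 of the 33616 kept stretches held none, the 1681 among them. The same limit on the H3K79me2 peaks in place of the H3K79me1 peaks left 106 H3K79me1-free stretches.

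Most H3K79me1-free stretches lay within 1 kb of an H3K79me1 peak of at least 1 list. The nearest H3K79me1 peak of the 4 lists lay at a median of 232 bp (25th to 75th percentile 84 to 583 bp). In 761 stretches (45.3%) it lay within 200 bp, in 646 (38.4%) beyond that but within 1000 bp, in 146 (8.69%) within 10000 bp and in 128 (7.61%) farther away. Taken list by list, the median distance was 354 bp in Cre replicate 1, 892 bp in control replicate 2, 984 bp in control replicate 1 and 3794 bp in the small list of Cre replicate 2. In 910 of the 1681 the nearest peak was in Cre replicate 1. Within 1 kb, Cre replicate 1 had a peak for 77.0% of the stretches, the controls for 50.4% and 53.0%, and Cre replicate 2 for 21.1%.

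**Figure D2:**
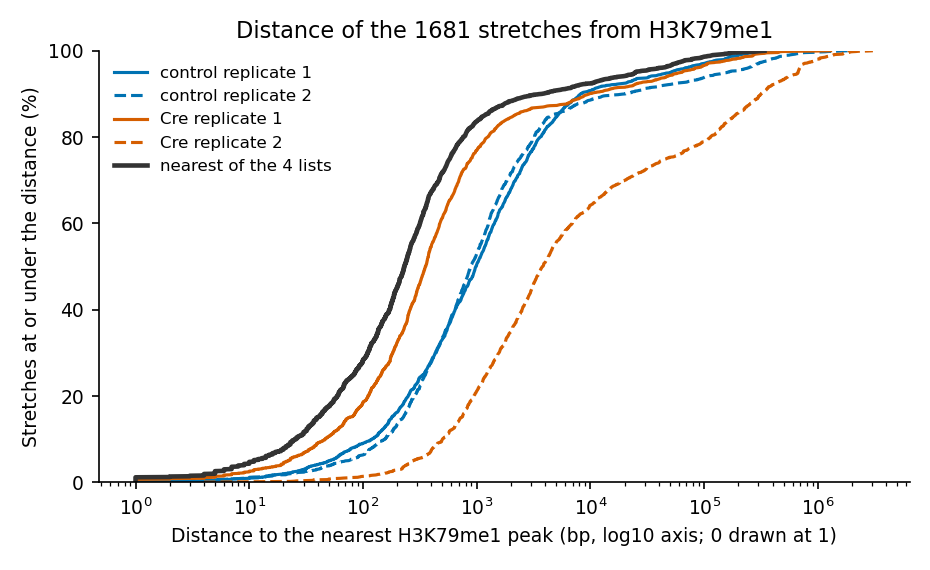
Cumulative share of the 1681 H3K79me1-free stretches (y axis, percent) by distance to the nearest H3K79me1 peak (x axis, bp, log10 scale), per H3K79me1 list and for the nearest of the 4 lists (black). The black curve passes 45.3% at 200 bp, and the curve of Cre replicate 2 lies farthest right.

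H3K79me1 cover was also measured by distance from the stretches. In H3K79me1 control replicate 1, peaks covered 5.96% of the first 250 bp beside the stretches, 23.8% at 1 to 2 kb and 27.6% at 5 to 10 kb. In control replicate 2 the cover went from 4.21% over 15.8% to 15.4% in the same bins. In Cre replicate 1 it went from 11.6% to a highest value of 33.9% at 0.5 to 1 kb, and was 21.8% at 5 to 10 kb. Beside marked stretches H3K79me1 cover was highest in the first 250 bp in all 4 lists, at 62.5% in control replicate 1, 37.2% in control replicate 2, 60.9% in Cre replicate 1 and 2.75% in Cre replicate 2. Since no H3K79me1 peak may enter a stretch, part of the low cover right beside it follows from the rule. H3K79me2 went the other way in 3 lists: beside H3K79me1-free stretches it covered 65.5% of the first 250 bp in control replicate 2, 65.0% in Cre replicate 1 and 61.7% in Cre replicate 2, and 31.9%, 27.6% and 25.0% at 5 to 10 kb. It fell in the same way beside marked stretches. There it covered 73.9%, 75.6% and 69.0% of the first 250 bp and 38.1%, 34.5% and 31.0% at 5 to 10 kb, in the same order. In control replicate 1, H3K79me2 covered 7.72% of the first 250 bp beside H3K79me1-free stretches. That list had the narrowest peaks, and 1231 of the 1681 stretches were exactly one of its peaks, as were 25103 of the 31935 marked stretches. The sequence beside those stretches was by construction outside that list.

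**Figure D3:**
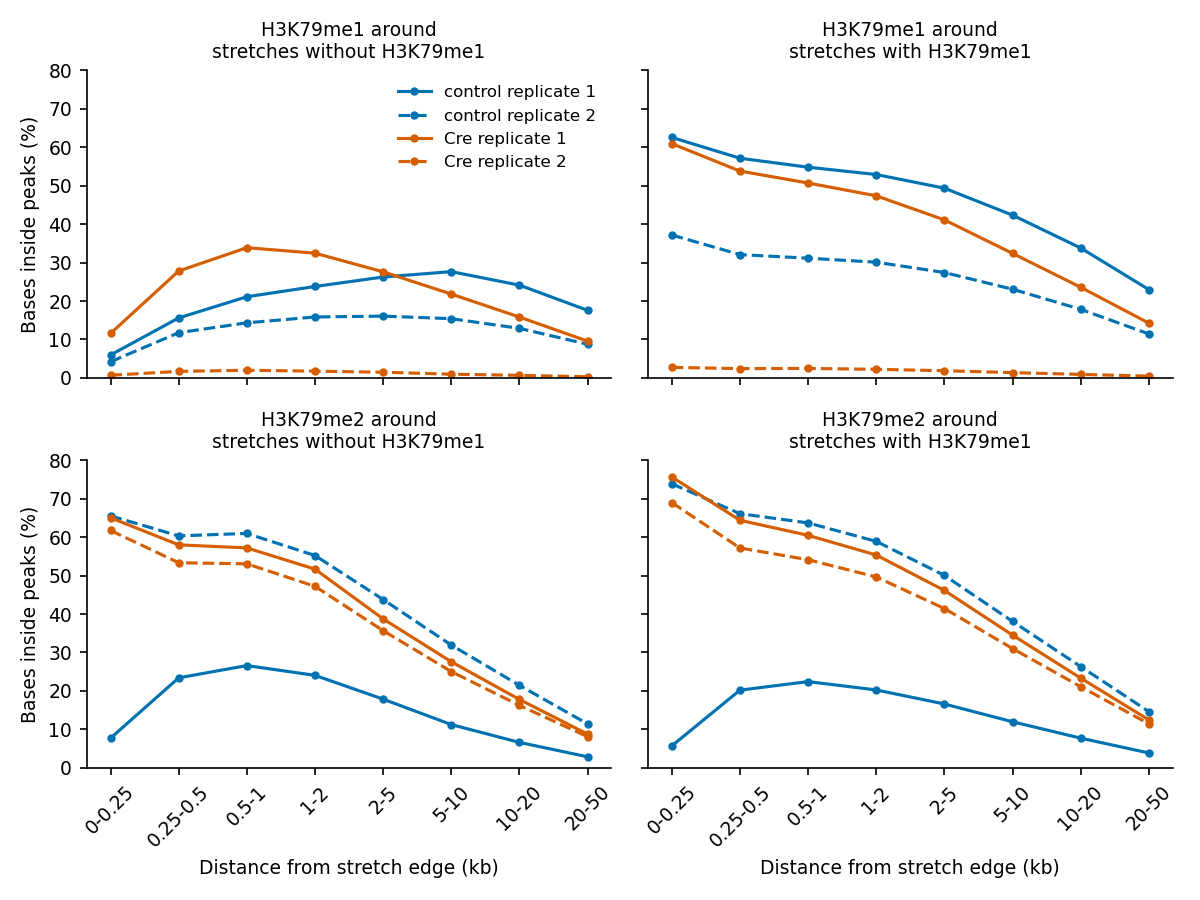
Share of bases inside peaks (y axis, percent) by distance from the stretch edge (x axis, kb, unequal bins, both sides pooled), for H3K79me1 (top) and H3K79me2 (bottom), around H3K79me1-free stretches (left) and marked stretches (right). H3K79me1 is lowest next to the H3K79me1-free stretches in the controls (5.96% and 4.21% in the first bin), while beside marked stretches the first bin is the highest.

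The stretches mostly lay inside H3K79me2 domains that held H3K79me1 elsewhere. When the peaks of all 4 H3K79me2 lists were merged within 1 kb, the 1681 stretches fell in 1161 domains, with a median domain width of 15.2 kb over stretches (5.73 to 27.7 kb). Marked stretches lay in domains with a median of 17.5 kb (9 to 31.2 kb). The domain held an H3K79me1 peak somewhere for 1456 stretches (86.6%), and was at least 10 kb wide for 1056 (62.8%, against 71.95% of marked stretches). The median distance to the domain edge was 2.22 kb for H3K79me1-free and 3.78 kb for marked stretches. The remaining 225 lay in domains with no H3K79me1 in any list. Those domains had a median width of 0.241 kb and reached 9.23 kb, and the stretches in them had a median width of 66 bp.

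The H3K79me2 peaks that held the stretches were broad in 3 lists and usually carried H3K79me1 outside the stretch. The whole peak was free of H3K79me1 for 1584 stretches (94.2%) in control replicate 1, but for 541 (32.2%) in control replicate 2, 551 (32.8%) in Cre replicate 1 and 643 (38.3%) in Cre replicate 2. In 394 stretches (23.4%) it was free in all 4 lists. In control replicate 1 the peak was exactly the stretch for 1231 of the 1681, so for those the rule required it to be free.

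A second kind of stretch was isolated, narrow and, in 3 of the 4 H3K79me2 lists, high in rank by enrichment. These were the 128 stretches more than 10 kb from any H3K79me1 peak, of which 106 were at most 100 bp wide and none was wider than 342 bp. Within 10 kb of them, with all kept stretches left out, H3K79me2 peaks covered 0.178% in control replicate 1 and 1.36% in control replicate 2, with 0.589% and 1.09% in the Cre lists. Around the 761 stretches within 200 bp of H3K79me1 those shares were 3.00%, 36.1%, 32.4% and 28.5%. The peaks over the isolated stretches had medians of 64, 186, 164.5 and 204 bp in the same order, below the median peak of each whole list (89, 194, 350 and 229 bp). No H3K79me1-marked stretch lay within 100 kb of 106 of them. They were spread over 18 autosomes and 128 separate windows of 100 kb, with most, 16, on chromosome 14.

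Rank within a list was taken from the fold enrichment over background that the authors' peak caller gave each peak, as a percentile of that list. The isolated stretches had medians at the 98.1 and 98.6 percentiles in control replicates 1 and 2, 59.5 in Cre replicate 1 and 95.8 in Cre replicate 2. Their median enrichment was 5.13-fold, 2.74-fold, 1.88-fold and 2.37-fold in that order. In the top 5% of the list stood 87 and 88 of the 128 in the controls, 68 in Cre replicate 2 and 6 in Cre replicate 1. These were 68.0%, 68.75%, 53.1% and 4.69% of the isolated stretches, where the shares of marked stretches were 0.839%, 20.5%, 17.4% and 25.4% in the same order. Among stretches within 200 bp of H3K79me1 the medians were 34.6, 89.5, 89.4 and 84.5, so Cre replicate 1 and control replicate 1 ordered the 2 kinds in opposite ways. Percentiles of lists of different length show no change between libraries and were compared only within a list.

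**Figure D4:**
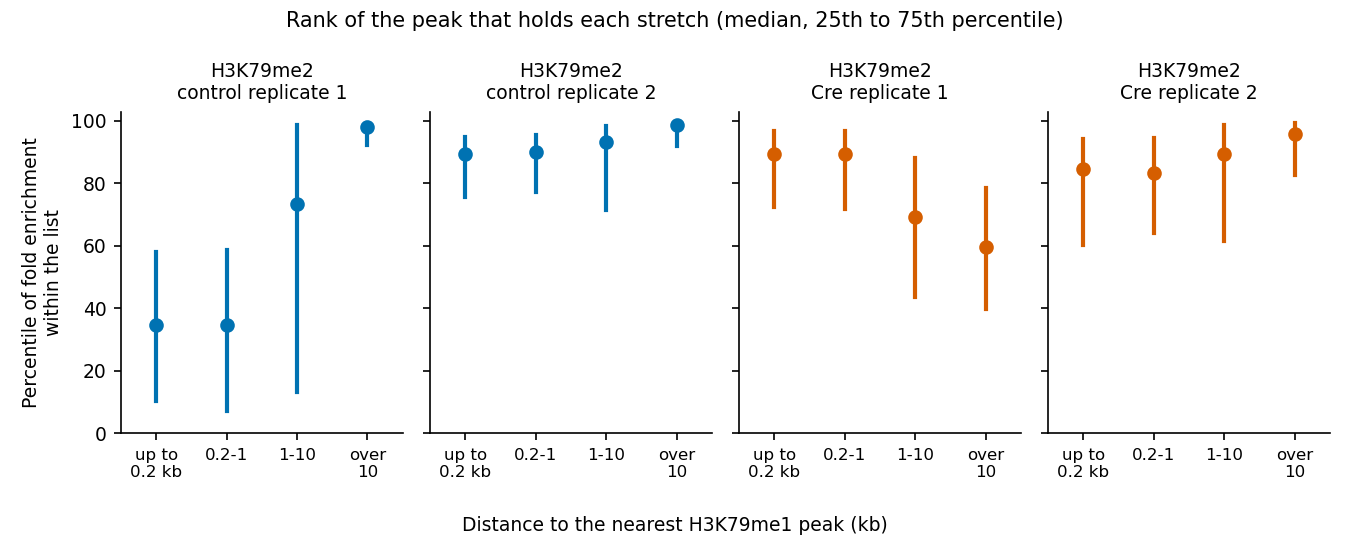
Percentile of the authors' fold enrichment within the list (y axis) of the H3K79me2 peak over each H3K79me1-free stretch, by distance to the nearest H3K79me1 peak (x axis, kb), 1 panel per list. Points are medians and bars the 25th to 75th percentiles over 761, 646, 146 and 128 stretches; the median is highest in the farthest class in 3 lists and lowest there in Cre replicate 1 (59.5).

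Over all 1681 stretches the rank did not differ from that of marked stretches by more than the spread between lists. The median percentile of H3K79me1-free stretches was 39.1, 90.6, 86.9 and 85.2 in control replicates 1 and 2 and Cre replicates 1 and 2, against 45.9, 86.8, 85.9 and 82.2 for marked stretches. The differences were -6.79, 3.74, 0.999 and 3.00 percentile points, with a mean of 0.24 ± 4.82 (SD, n = 4 libraries). An exact two-sided sign-flip permutation test over 16 arrangements gave p = 1, where 0.13 is the smallest value possible. The sign was not stable: the mean was -3.87 when peaks were ranked by −log10 p, and ran from -3.52 without H3K79me1 control replicate 1 to 15.8 without H3K79me2 Cre replicate 1.

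H3K79me1-free stretches were most frequent at the highest ranks of the control lists. Of 343 kept stretches whose peaks reached the 95th percentile in both controls, 135 (39.4%) were H3K79me1-free, against 1546 of 33273 others (4.65%). In finer classes of the lower control percentile the share was 5.45% under 50, 3.33% from 50 to 90, 11.4% from 90 to 95, 36.0% from 95 to 99 and 43.8% of 146 stretches at 99 and over. Of the 135, 71 lay more than 10 kb from H3K79me1 and 19 within 1 kb. In Cre replicate 1 the 135 had a median percentile of 60.7, against 88.3 for marked stretches at the same control threshold. In Cre replicate 2 the medians were 98.9 and 99.6. This threshold was chosen after the values were seen, and the share was not tested. It rested on single lists. Without H3K79me2 control replicate 1 it was 5.29% of 4010 stretches, without H3K79me2 Cre replicate 1 it was 79.4% of 2092, and without H3K79me1 control replicate 2 it was 56.3%.

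The step from both controls to both Cre lists was also followed. Before the Cre lists were asked for, 16470 of the 63168 control stretches (26.1%) held no H3K79me1. Cre replicate 1 touched 2079 of them (12.6%) and Cre replicate 2 touched 8535 (51.8%). For the 46698 stretches with H3K79me1 the shares were 76.7% and 81.1%. These sets differed in width, with medians of 57 and 143 bp. Within stretches under 100 bp the shares were 7.12% and 49.4% without H3K79me1 and 60.7% and 67.7% with it. At 500 bp and over they were 97.4% in both Cre lists without H3K79me1 (77 stretches) and 99.2% and 99.6% with it. These shares have no test, since the presence of H3K79me2 after Cre is part of the rule and each Cre list is 1 library.

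The gap between the Cre lists was widest among the control stretches at the 95th percentile or over in both controls. Of 1887 such stretches without H3K79me1, Cre replicate 2 touched 1662 (88.1%) and Cre replicate 1 touched 136 (7.21%). Of 450 with H3K79me1, they touched 430 (95.6%) and 210 (46.7%). The list of Cre replicate 1 held 76497 peaks of at least 147 bp, and that of Cre replicate 2 held 124120 of at least 126 bp. How this bears on the gap was not tested.

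**Figure D5:**
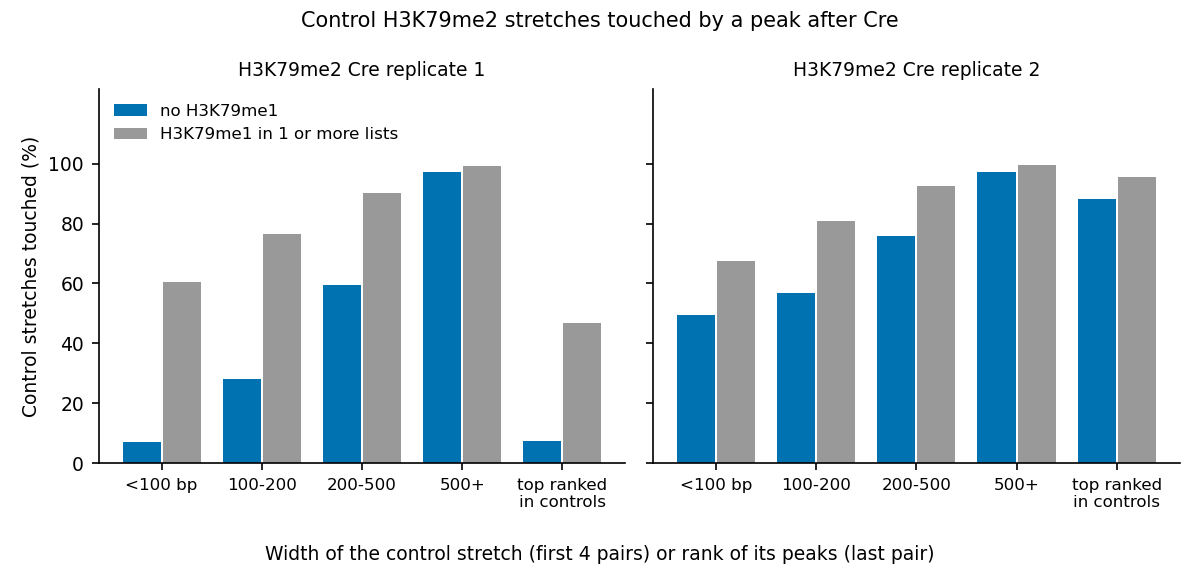
Share of control H3K79me2 stretches touched by a peak (y axis, percent) in each Cre list, by stretch width (x axis, bp) and, in the last pair, for stretches whose peaks reach the 95th percentile in both controls. Blue bars are stretches without H3K79me1 and grey bars those with it; the last blue bar is 7.21% in Cre replicate 1 and 88.1% in Cre replicate 2.

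Of the H3K79me1-free length, Cre replicate 1 covered 87.2% and Cre replicate 2 covered 85.1%, and of the marked length they covered 92.1% and 90.1%. Both Cre lists covered the whole stretch in 921 of the 1681 (54.8%), where the share over all 33616 kept stretches was 61.6%. The lower share was found in each width class, for example 41.5% against 53.7% of marked stretches at 200 to 500 bp and 41.1% against 54.4% at 500 bp and over. A touch in each Cre list was required, so these are descriptions.

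The width of the H3K79me2 peaks over these stretches is given as a description, with no test. The peaks' positions chose the regions, control peaks had to cover the stretch where Cre peaks had only to touch it, and in control replicate 1 most stretches were the peak itself. The median width of the peak over an H3K79me1-free stretch was 153 bp in control replicate 1, 1382 bp in control replicate 2, 1220 bp in Cre replicate 1 and 847 bp in Cre replicate 2. Control replicate 1 was the lowest and control replicate 2 the highest, so the groups overlapped. The arithmetic means were 767.5 ± 869 bp in control and 1033.5 ± 264 bp after Cre (SD, n = 2), and the log2 difference of the geometric means was 1.14. With the regions chosen again without control replicate 1 it was 0.27, and without control replicate 2 it was 2.75. Peaks were wider in both Cre lists than in both controls at 422 stretches (25.1%) and narrower at 28 (1.67%). Over all 33616 kept stretches the shares were 26% and 1.66%, so the H3K79me1-free stretches did not stand apart from that background.

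The sequence within 10 kb of the stretches, outside all kept stretches, was compared next. H3K79me2 peaks took up 2.43% of it in control replicate 1 and 28.1% in control replicate 2, with 24.6% and 21.8% in the Cre lists. The controls thus enclosed the Cre values. Kept stretches are by rule bases inside both control lists, so leaving them out lowers the control values, most of all in control replicate 1, and the direction cannot be told apart from the rule. The controls averaged 15.2 ± 18.1% and the Cre lists 23.2 ± 1.96% (SD, n = 2), a log2 difference of the geometric means of 1.49, given with no test. It was 0.31 without control replicate 1, and without control replicate 2 it was 4.00. Flanks of marked stretches put the lists in the same order. From lowest to highest, H3K79me2 cover there was 2.06% (control replicate 1), 18.4% (Cre replicate 2), 20.9% (Cre replicate 1), then 24.2% (control replicate 2).

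H3K79me1 peaks took up 24.9% of the same flanks in control replicate 1 and 13.3% in control replicate 2, with 19.1% and 0.589% in the Cre lists. Cre replicate 1 lay between the controls and Cre replicate 2 far below all others. The controls averaged 19.1 ± 8.23% and the Cre lists 9.85 ± 13.1% (SD, n = 2), a log2 difference of the geometric means of -2.44 (two-sided exact permutation test over 6 arrangements, p = 0.667, the smallest possible being 0.33). Without Cre replicate 2 the log2 difference was 0.07. Flanks of marked stretches ranked the lists alike: control replicate 1 (37.9%), Cre replicate 1 (23.0%), control replicate 2 (18.9%), Cre replicate 2 (0.565%). This order was therefore not particular to the H3K79me1-free stretches. Cre replicate 2 covered 0.0748% of the autosomes in all, against 2.16% to 4.76% in the other 3 lists. When each value was divided by the list's cover of the autosomes, the flanks of H3K79me1-free stretches were covered 5.23 and 6.14 times the autosomal share in the controls and 7.94 and 7.88 times after Cre. The log2 difference was then 0.48, and both Cre values lay above both controls. This difference is also given with no test, since the rule used the positions in these lists. For flanks of marked stretches the same ratio was 9.55 (Cre replicate 1), 8.74 (control replicate 2), 7.96 (control replicate 1), then 7.56 (Cre replicate 2). There the Cre values enclosed the controls, and the difference between the 2 kinds of flank was not tested.

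Among the 8 widest H3K79me1-free stretches, the widest was chr6:67217143-67218469 (mm9, 1327 bp). Its H3K79me2 peaks spanned 1478 and 1465 bp in control and 1557 and 2376 bp with Cre, both Cre peaks being wider than both control peaks. The nearest H3K79me1 peak was 1560 bp away in control replicate 2, 1656 bp in Cre replicate 1, 9624 bp in control replicate 1 and 293751 bp in Cre replicate 2. It lay in an H3K79me2 domain of 17.1 kb.

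Next in width were chr14:35314567-35315825 and chr14:62266303-62267495, chr2:130003571-130004757 and chr16:8737738-8738888. They were followed by chr14:8653393-8654505, chr2:167515434-167516536 and chr3:99062703-99063776. All 8 lay in domains that held H3K79me1, from 5.05 kb (chromosome 2, 167515434) to 69.8 kb (chromosome 3). The stretch on chromosome 16 was a peak of control replicate 1, 1151 bp, within peaks of 15415 bp in control replicate 2, 14585 bp in Cre replicate 1 and 6357 bp in Cre replicate 2. Of the 8, the one on chromosome 14 starting at 62266303 was covered to 96.6% and 78.7% in Cre replicates 1 and 2, and the one on chromosome 2 starting at 167515434 to 78.97% and 100%. The other 6 were covered in full by both Cre lists.

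The 5 stretches farthest from H3K79me1 lay 271 to 340 kb from any such peak. The farthest, chr6:126413195-126413256 (62 bp), had peaks of 62, 196, 147 and 199 bp in control replicates 1 and 2 and Cre replicates 1 and 2. Its fold enrichment was 5.36, 3.62, 1.88 and 2.51 in that order, the lowest being Cre replicate 1. The stretch chr10:17103653-17103754 had 9.84-fold, 4.03-fold, 1.94-fold and 4.21-fold enrichment. The stretch chr8:91844136-91844246 had 3.13-fold, 3.54-fold, 1.91-fold and 1.92-fold. Fold enrichment depends on each list's background and is set side by side here with no test. The stretch chr5:57637991-57638104 had 2.16-fold and 2.12-fold in the controls and 2.39-fold and 2.68-fold after Cre, both Cre values being above both controls. The stretch chr14:46703898-46703957 had 1.85-fold, 1.45-fold, 1.95-fold and 1.73-fold, with Cre replicate 2 between the controls. It stood near the bottom of the control lists, at percentiles of 0.717 and 0.557. All 5 lay in domains of at most 0.619 kb that held no H3K79me1.

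The 5 stretches chosen because they ranked highest in all 4 H3K79me2 lists were 79 to 191 bp wide, around the median of 119 bp over all H3K79me1-free stretches. The first, chr19:39065098-39065265, had 11.3-fold and 8.57-fold enrichment in the controls, 2.93-fold in Cre replicate 1 and 6.27-fold in Cre replicate 2, with peaks of 168 to 272 bp. Its nearest H3K79me1 peak, in control replicate 2, was 313 bp away, and the next nearest, in control replicate 1, was 23775 bp away. The others were chr8:124235741-124235874, chr10:55778070-55778178, chr5:127400675-127400865 and chr11:53072499-53072577. Enrichment over the 5 was 8.63 to 11.9-fold in control replicate 1, 4.68 to 8.57-fold in control replicate 2, 2.49 to 2.93-fold in Cre replicate 1 and 3.54 to 6.94-fold in Cre replicate 2. None of the 5 lay in a domain with H3K79me1, although 2 had an H3K79me1 peak of 1 list within 313 bp.

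The stretches were scattered, with a few places of high density. They fell in 1138 windows of 100 kb, 820 of which held 1 stretch and 108 held 3 or more. The window with most, chr6:52100001-52200000, held 20 of its 36 kept stretches (55.6%), 51 to 419 bp wide. H3K79me2 peaks filled 12.4% of it in control replicate 1, 41.1% in control replicate 2 and 36.2% and 33.9% in the Cre lists. H3K79me1 covered 19.9% and 3.91% in the controls, 15.4% in Cre replicate 1, and 0% in the small list of Cre replicate 2.

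Other dense windows were chr18:35700001-35800000 with 12 of 37 kept stretches, chr12:16900001-17000000 with 10 of 42, chr1:165200001-165300000 with 9 of 43 and chr7:80600001-80700000 with 9 of 33. In all 5 windows H3K79me2 cover was lowest in control replicate 1 (12.4% to 17.9%) and highest in control replicate 2 (34.9% to 41.1%), with both Cre lists between them. H3K79me1 cover in control replicate 1 ran from 12.8% on chromosome 1 to 36.5% on chromosome 7. The windows were chosen for their number of stretches, so this number is a description.

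By chromosome, the H3K79me1-free share of kept stretches ran from 3.81% on chromosome 8 to 6.99% on chromosome 6. Chromosomes 12, 18 and 13 followed chromosome 6 with 6.83%, 6.72% and 6.70%. Per Mb, the stretches were fewest on chromosome 1 (0.548) and most frequent on chromosome 11 (1.14), the chromosomes that also had the fewest (9.76) and most (23.6) kept stretches per Mb. Of the 1681 stretches, 1084 (64.5%) had a marked stretch within 1 kb and 1493 (88.8%) within 100 kb.

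At the edge of the rule, 7 H3K79me1-free stretches met an H3K79me1 peak end to end, and 11 marked stretches held a single H3K79me1 base summed over the lists. The first of those just inside were chr5:73684790-73684934, chr11:32253556-32253873 and chr12:85509272-85509348. Those just outside were chr1:59541085-59541216, chr3:95911686-95911907 and chr4:88582049-88582117. Widths were 145, 318 and 77 bp inside and 132, 222 and 69 bp outside.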

How the data were processed

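The data were 8 lists of broad ChIP-seq peaks, 4 for H3K79me1 and 4 for H3K79me2. Per the labels' protocols, 7.1 µg of chromatin sonicated to 200 to 400 bp was mixed with 133 ng of human 293T chromatin as a spike-in. It was precipitated with 5 µg of antibody. Both builds (mm9, hg19) and the tools MACS2, Bowtie2, bedtools, deepTools, HOMER and SAMtools 1.2 appear in the submitters' processing notes, which assign them no roles. Per the deposited peak names, every library had its own peak calling against input, at p 0.001 (H3K79me1) or 1e-04 (H3K79me2). Each deposited list gives a fold enrichment over background from the authors' caller (a ratio), a −log10 p, a −log10 q and a score per peak. Scaling to the spike-in and read depth are not given in the sources used here, so a count interval for depth could not be made. H3K79me1 control replicate 1 lists no peak on chromosome X. RNA polymerase II libraries were not analysed here.

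Stretches were intersected with Python 3.11.15 and NumPy 2.4.6, tested on simulated data. Only fold and −log10 p were used, and only within a list. A stretch's peak was that with the largest overlap. An exact two-sided permutation test compared log2 H3K79me1 cover of the flanks between 2 Cre and 2 control libraries, unpaired. The like tests of H3K79me2 peak width and flank cover are not reported, because the rule used those positions. Named regions were the 8 widest, the 5 farthest from H3K79me1, the 5 with the highest lowest rank, the 5 windows of 100 kb with most stretches, and 3 on each side of the rule. Members and comparisons were chosen with earlier results of these data known. No sequence of mm9 was used here. Alternatives changed the p of the peaks, the width, overlap, merging and H3K79me1 distance rules, flank size, scaling, ranking and pairing, and left out each library.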

Additional observations from a re-analysis of the deposited data

Results flagged for a closer look

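Chromosome X is outside the comparisons above, because H3K79me1 control replicate 1 lists no peak there. With the other 3 H3K79me1 lists, 129 of its 273 kept H3K79me2 stretches (47.3%) held no H3K79me1, with a median width of 107 bp. The autosomal share with the same 3 lists was 7.89%. This number is given because it comes from data that the comparisons did not use and is above the limit that a count of 0 allows. The difference was not tested.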

How the results depend on the processing

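The lists give no read depth, so the spread over libraries was the only measure of precision, and the lowest exact permutation p of any alternative was 0.13. The number of H3K79me1-free stretches was 497 at a width of at least 200 bp, 106 with H3K79me2 peaks and 25324 with H3K79me1 peaks of −log10 p of at least 2, 276 and 128 with no H3K79me1 within 1 and 10 kb, and 499 with H3K79me2 peaks merged within 1 kb. Under these settings in the same order the length covered after Cre was 83.8%, 95.5%, 90.2%, 91.8%, 92.7% and 70.8%, against 86.1%, and it was 94.7% where coverage by 50% was required. The difference in median width from marked stretches, -75.0 bp, was -264.5, -41.0, -125, -130 and -565 bp under the last 5. The rank difference, 0.24, was -2.61 at 200 bp, -0.52 and -3.91 under the 2 stricter p-values, -3.87 when ranked by −log10 p, 11.9 and 12.8 with no H3K79me1 within 1 and 10 kb, and 5.39 with merged peaks. The H3K79me1 flank difference was 0.48 relative to autosomal cover. No value for it exists with no H3K79me1 within 10 kb.

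With each library left out, the number ran from 1027 to 8535, the width difference from -332 to -31.0 bp, the length covered after Cre from 66.3% to 92.4%, the rank difference from -3.52 to 15.8 and the H3K79me1 flank difference from -5.04 to 0.066 (without H3K79me1 Cre replicate 2). H3K79me2 peak width ran from 0.27 to 2.75 and its flank cover from 0.31 to 4.00. The share among the strongest stretches, 39.4%, ran from 5.29% to 79.4%. These strongest-stretch settings were added after seeing the data, and gave 25.6% at the 90th percentile and 49.4% in stretches under 100 bp.

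With the replicate number as a block, the log2 differences were the same by construction. They were 1.14 in H3K79me2 width, 1.49 in its flank cover and -2.44 in H3K79me1 flank cover, given with no test. Whether the numbers mark pairs is not stated, and deviations of same-numbered libraries correlated at 0.507 for H3K79me1 and -0.404 for H3K79me2 over 50 kb windows. Crossing the H3K79me2 numbers, added after seeing the data, left the log2 differences of 1.14 and 1.49 unchanged by construction. All these log2 differences rest on positions that the rule used.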
